A study of Mus musculus with 9 samples.

Results

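The 9 genes described here encode integrin chains and the hyaluronan receptor of T cells: the alpha chains Itga4, Itgae, Itgal and Itgav, the beta chains Itgb1, Itgb2, Itgb3 and Itgb7, and Cd44. They were picked by symbol from 20418 gene symbols, and 1 transcript was used for each. In the files, on mouse build mm8, Itga4, Itgav and Cd44 lie on chromosome 2, Itgae and Itgb3 on 11, Itgal on 7, Itgb1 on 8, Itgb2 on 10 and Itgb7 on 15. The study sequenced RNA from splenic CD8+ T cells of C57BL/6 females aged 6 weeks, in 9 libraries. The 9 conditions were untreated cells and cells given IL-2 or IL-15, each at 1 or 500 nM and each for 4 or 24 h. IL-2 and IL-15 are cytokines that signal through shared beta and gamma receptor chains. Each library held the RNA of 3 identically treated samples in a pool, so no condition had a second library. No library came from cells kept for 4 or 24 h without cytokine. Effects of the cytokine and of time alone thus cannot be told apart, either against untreated cells or between times. The spread used in the tests came from the factorial layout of the 8 treated libraries, so the p-values speak only of how these libraries scatter. The labels name no sort.

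Integrins are paired receptors of 1 alpha and 1 beta chain, and a chain reaches the cell surface only with a partner. Alpha4 pairs with beta1 (VLA-4, a receptor for VCAM-1 and fibronectin) or with beta7 (the receptor for MAdCAM-1 that guides lymphocytes to the gut). AlphaE (CD103) pairs with beta7 and binds E-cadherin on epithelial cells, and TGF-beta is a known inducer of its gene. AlphaL pairs with beta2 as LFA-1, which binds ICAMs and holds T cells to antigen-presenting and target cells. AlphaV and beta3 form the vitronectin receptor, and CD44, which is no integrin, binds hyaluronan and is widely used as a marker of activated and memory T cells.

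All 9 genes passed the filter on low counts. The libraries held between 27158143 and 48799961 reads in genes. The 12 T cell markers summed to 4309 to 7138 CPM (counts scaled to a common library size by TMM) over all 9 libraries, among them Cd8a and Cd8b1. Markers of other cells were also present and were not even across groups. The 13 myeloid markers summed to 1353 CPM in untreated cells, while the 1 nM libraries had 254 to 753 CPM and the 500 nM libraries 33.8 to 192 CPM. The sums of the 10 B cell markers in these groups were 760, 571 to 805 and 247 to 411 CPM, and those of the 8 dendritic cell markers 149, 46.7 to 103 and 31.0 to 39.7 CPM. Each gene of these 3 lists had reads in at least 1 library. Not every list was lower with the high dose. For the 7 NK cell markers the sums were 289 (untreated), 89.1 to 118 (1 nM) and 255 to 710 CPM (500 nM). Most of the 500 nM sums came from Eomes, with 238 to 683 CPM. Singly, 1 of the 7 was called higher with dose and 2 lower. In such bulk samples fewer cells of a type and less RNA per cell cannot be told apart.

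The promoters of Itga4 and of its alternative partners Itgb1 and Itgb7 are shown because Itga4 and Itgb7 were called by edgeR in several comparisons below and Itgb1, which can pair with the same alpha chain, in none. They come from RefSeq on mouse build GRCm38.p6 and span 250 bases before to 50 after the start of the gene, each in the direction of transcription. Of the 9 genes, 5 matched an entry of that table (Itga4, Itgav, Cd44, Itgb1 and Itgb7). Capitals mark the GC box, and in Itga4 also the RUNX motif. The Itga4 window is chr2:79255176-79255475 on the plus strand, the Itgb1 window chr8:128685404-128685703 on the plus strand and the Itgb7 window chr15:102231886-102232185 on the minus strand.
Itga4: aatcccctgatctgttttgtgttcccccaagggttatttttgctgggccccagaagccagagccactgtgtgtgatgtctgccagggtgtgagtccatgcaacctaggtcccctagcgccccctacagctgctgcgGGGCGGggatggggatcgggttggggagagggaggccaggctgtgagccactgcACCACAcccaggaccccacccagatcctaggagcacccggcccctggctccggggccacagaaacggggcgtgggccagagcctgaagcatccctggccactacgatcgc
Itgb1: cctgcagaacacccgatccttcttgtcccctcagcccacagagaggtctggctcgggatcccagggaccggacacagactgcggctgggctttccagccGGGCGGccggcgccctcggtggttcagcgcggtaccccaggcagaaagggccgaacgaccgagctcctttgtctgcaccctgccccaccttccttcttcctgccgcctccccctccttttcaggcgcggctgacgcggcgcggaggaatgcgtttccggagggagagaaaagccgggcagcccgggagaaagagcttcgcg
Itgb7: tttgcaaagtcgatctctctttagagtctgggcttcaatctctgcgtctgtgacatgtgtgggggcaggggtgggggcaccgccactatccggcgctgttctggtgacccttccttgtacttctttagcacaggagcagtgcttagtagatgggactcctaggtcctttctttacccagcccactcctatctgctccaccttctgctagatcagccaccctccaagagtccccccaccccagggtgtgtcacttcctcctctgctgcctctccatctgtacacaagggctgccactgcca
3 motifs were searched on both strands, and none overlapped another in these windows. The GC box GGGCGG was in 4 of the 5 windows and not in that of Itgb7, and 35.7% of all 32851 promoter windows hold it. The RUNX motif TGTGGT was found in Itga4, where it lies on the opposite strand and is printed as ACCACA, and 16.8% of all windows hold it. The STAT motif TTCNNNGAA was in none of the 5 windows, against 8.30% of all. These letters describe the windows and mark no binding site.

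Per length of transcript, the beta7 and beta2 chains had the highest levels. In untreated cells Itgb7 stood at 201 RPKM (reads per kilobase of transcript, scaled for depth), Itgb2 at 108, Itgal at 30.5, Itgb1 at 15.9, Itgae at 13.7, Cd44 at 3.59, Itga4 at 2.76, Itgb3 at 0.760 and Itgav at 0.221. Neighbours in this order could not be compared beyond counting error, since there was 1 untreated library. The 8 integrin chains held 88.7% to 98.5% of the summed RPKM of all 26 integrin genes listed, and their beta chains summed to between 2.85 and 6.92 times their alpha chains. Itgb7 alone held 49.1% in untreated cells and 58.4% with 1 nM IL-2 at 24 h. With 500 nM at 24 h Itgb2 held the largest share, 41.2% with IL-2 and 38.7% with IL-15, and Itgae the lowest shares of its range, 0.235% and 0.338%.

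**Figure D1:**
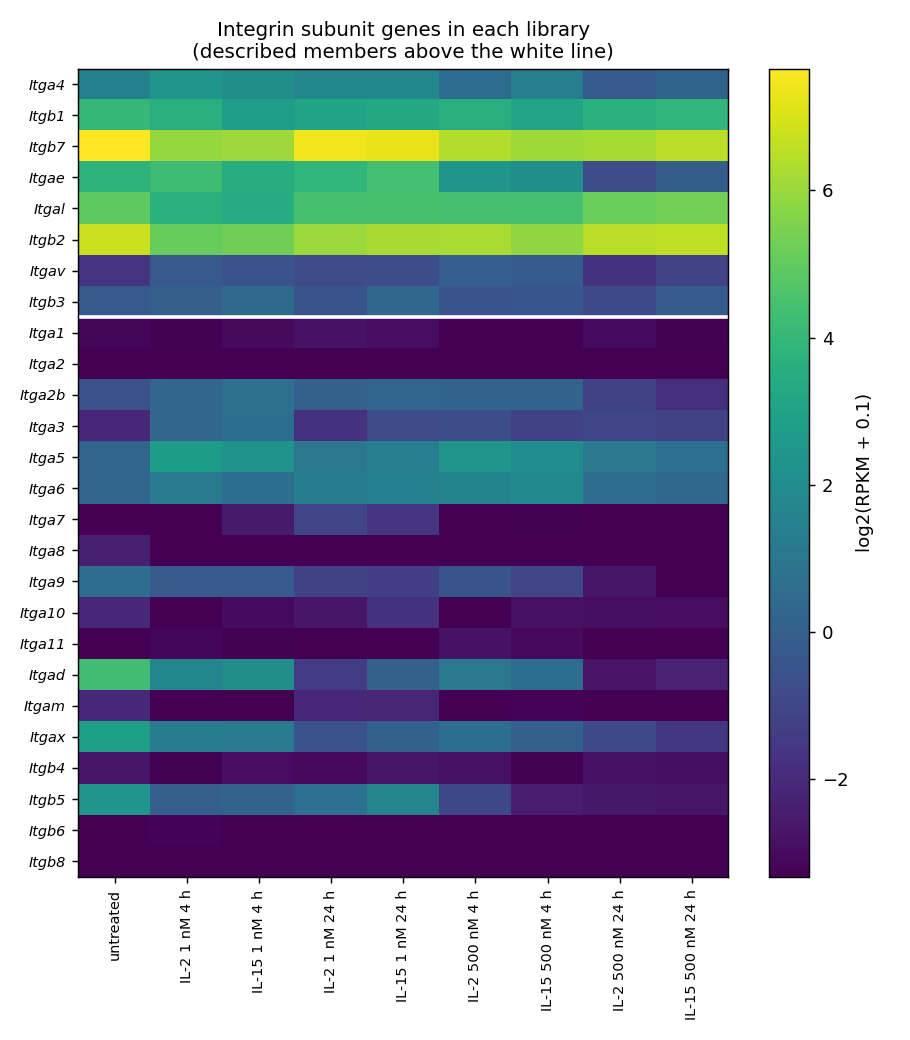
RPKM of the 8 integrin members (above the white line) and 18 other integrin genes (below) in each of 9 libraries, coloured by log2(RPKM + 0.1). Itgb7, Itgb2 and Itgal are bright in every library, Itgae darkens in the 2 libraries with 500 nM at 24 h, and Itgad, Itgax and Itgb5 are brightest in the untreated library.

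The first comparison asked how the dose of cytokine, 500 against 1 nM, moved these genes over both cytokines and both times. Itgae and Itga4 fell with dose, and Itgal and Itgb2 rose. Called lower were 2 of the 9 members, where 8.47% of the 13479 genes tested were called lower, and called higher were 2, where 7.63% of all genes were (edgeR quasi-likelihood test, Benjamini-Hochberg adjusted p under 0.05). Their median log2 fold change was -0.25, beside -0.03 over all genes tested. Itgb1, Itgb7, Itgav, Itgb3 and Cd44 did not pass.

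Itgae, the alpha chain of CD103, stood at 81.2 CPM in untreated cells. Cells kept in IL-2 for 4 h had 104 CPM at the low dose (1 nM) and 29.5 CPM at the high dose (500 nM), and for 24 h 80.2 and 2.80 CPM. For IL-15 the low and high dose gave 68.3 and 25.03 CPM after 4 h, then 114 and 4.57 CPM after 24 h. All 4 libraries at 500 nM lay below all 4 at 1 nM, and the 2 at 500 nM and 24 h lay far below every other. Those 2 rest on 99 and 154 reads, with 95% Poisson intervals of 2.28 to 3.41 and 3.88 to 5.35 CPM (here and below such intervals cover counting error only, since amplified reads are not independent molecules). Itgae fell 8.90-fold with dose (log2 fold change -3.15 ± 0.63 SE, adjusted p = 0.0124), and it was called in each of the 8 fits that left out 1 treated library.

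The fall of Itgae was steeper at the later time. The dose by time interaction, the difference between the dose effects at 24 h and at 4 h, was -3.05 ± 0.41 (SE, adjusted p = 0.00191). It passed in all 8 fits with 1 library left out. Of all genes, 4.76% were called with a negative interaction, and of the 9 members 2 were, Itgae and Itgb7. In comparisons added after seeing the data, Itgae fell with dose by 1.66 ± 0.29 on the log2 scale at 4 h (adjusted p = 0.00269) and by 4.72 ± 0.33 at 24 h (adjusted p = 5.1e-06). The 4 h call was lost without IL-2 at 1 nM and 4 h (log2 -1.16, adjusted p = 0.0698) or without IL-15 at 500 nM and 4 h (-1.48, adjusted p = 0.0503). Against untreated cells, Itgae was 22.1-fold lower at 500 nM and 24 h (adjusted p = 8.8e-06) and 2.97-fold lower at 500 nM and 4 h (adjusted p = 0.00667), and the latter was lost without IL-15 at 500 nM and 4 h (adjusted p = 0.0694). At 1 nM its fitted level was within 1.19-fold of the untreated level at both times.

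A second Itgae transcript in the files had 0.681 to 0.738 times the reads of the first in every library, so the choice of transcript did not set the pattern. Dendritic cells also carry CD103. The summed level of their 8 markers was lower at 500 nM, as given above, and singly 2 of the 8 were called lower with dose and 0 higher. Their median log2 fold change with dose was -0.73, and at 24 h 3 of the 8 were called lower with dose and 0 higher. Batf3 went against the list in level without a call at 24 h. It stood at 13.4 and 5.76 CPM at 24 h of the high dose against 4.69 and 4.98 CPM at 24 h of the low dose. The part of dendritic cells in the fall of Itgae was not tested. Of the 11 genes listed for TGF-beta signalling and Runx factors, 3 fell with dose, where 8.47% of all genes fell, and 0 rose. The median log2 fold change of the 11 was -0.36 beside -0.03 over all genes. The 3 that fell were the feedback inhibitor Smad7 (log2 -1.63), the receptor Tgfbr2 (-0.92) and the corepressor Ski (-0.72). Tgfbr2 stood at 338 to 443 CPM at 1 nM, 264 and 297 CPM at 500 nM and 4 h, and 156 CPM in both libraries at 500 nM and 24 h. The part of these genes in the fall of Itgae was not tested.

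Itga4, the alpha chain of VLA-4 and of the gut-homing receptor, stood at 42.2 CPM untreated. After 4 h of IL-2 it was 70.9 CPM at the low and 19.9 CPM at the high dose, and after 24 h 46.9 and 10.8 CPM. IL-15 gave 65.6 and 36.9 CPM after 4 h, and 47.1 and 14.5 CPM after 24 h. The libraries at 500 nM did not overlap those at 1 nM, and in all 4 matched pairs the 24 h library was the lower. Itga4 fell 3.07-fold with dose (log2 -1.62 ± 0.23 SE, adjusted p = 0.00324), a call kept in all 8 fits with 1 library left out. Its difference between times was -0.84 ± 0.22 (adjusted p = 0.0626) and passed with DESeq2 (adjusted p = 0.00918), with a dose by time term added (adjusted p = 0.00589) and on leaving out the 1 nM, 4 h library of IL-15 (adjusted p = 0.0317).

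Within times, Itga4 fell with dose by 1.32 ± 0.26 at 4 h (adjusted p = 0.00651) and by 1.92 ± 0.27 at 24 h (adjusted p = 0.00025). The 4 h call was lost without IL-2 at 1 nM and 4 h (log2 -1.04, adjusted p = 0.0906) or without IL-2 at 500 nM and 4 h (-0.94, adjusted p = 0.0688). The interaction of dose and time for Itga4 was -0.60 ± 0.36 and did not pass (adjusted p = 0.359). Against untreated cells it was 3.37-fold lower at 500 nM and 24 h (adjusted p = 0.00156).

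Itgb7, the beta chain that both Itga4 and Itgae can use, stood at 836 CPM untreated, its highest level. With IL-2 it stood at 229 CPM at the low and 333 CPM at the high dose after 4 h, and at 653 and 278 CPM after 24 h. The IL-15 libraries had 274 and 272 CPM after 4 h, and 589 and 344 CPM after 24 h. The 2 libraries at 1 nM and 24 h stood apart from the other 6 treated libraries, which spanned 229 to 344 CPM. Over both times Itgb7 did not pass for dose (log2 -0.37 ± 0.27, adjusted p = 0.385). Its interaction of dose and time did (-1.27 ± 0.28, adjusted p = 0.0185).

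That interaction of Itgb7 was lost on leaving out IL-2 at 1 nM and 4 h (adjusted p = 0.0523), IL-2 at 500 nM and 4 h (0.0539), IL-2 at 500 nM and 24 h (0.167) or IL-15 at 500 nM and 24 h (0.0572), with values between -1.44 and -1.06. At 24 h Itgb7 fell with dose by 0.999 ± 0.20 on the log2 scale (adjusted p = 0.00237), which was lost without IL-2 at 500 nM and 24 h (log2 -0.82, adjusted p = 0.0886). At 4 h the dose difference was 0.27 ± 0.20 (adjusted p = 0.480). From 4 to 24 h Itgb7 rose 2.47-fold at 1 nM (adjusted p = 0.00482), which was lost without IL-2 at 1 nM and 4 h (log2 1.15, adjusted p = 0.0763), and at 500 nM the difference was 0.04 ± 0.20. Bank1, a B cell adaptor, was the gene whose pattern was most like that of Itgb7 (Pearson r = 0.962). At 4 h the B cell markers summed to 602 (IL-2) and 571 CPM (IL-15) at 1 nM, and to 394 and 411 CPM at 500 nM. At 24 h the sums were 799 and 805 CPM at 1 nM, and 247 and 296 CPM at 500 nM. The part of B cells in the pattern of Itgb7 was not tested.

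**Figure D2:**
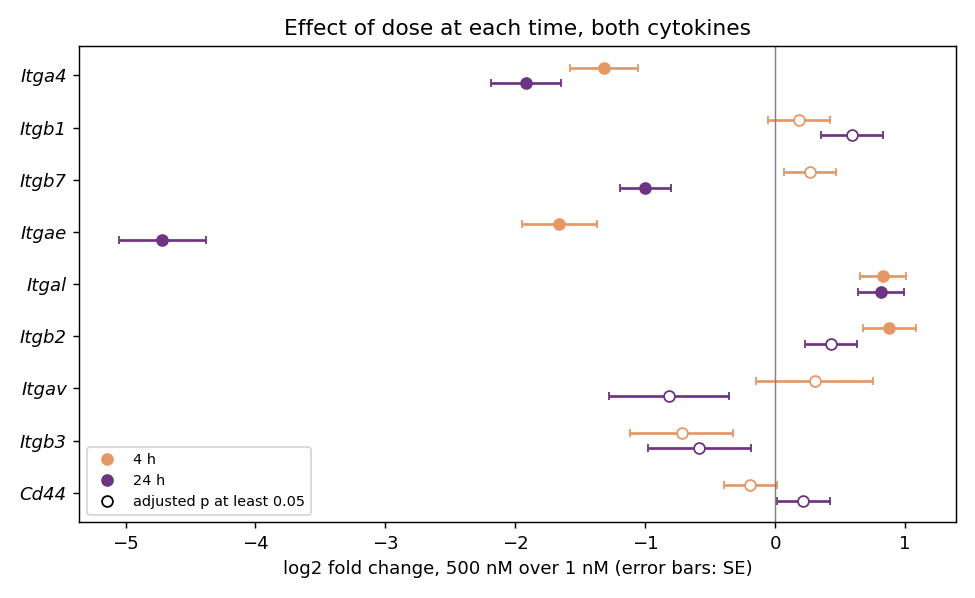
Log2 fold change of 500 over 1 nM at 4 h (orange) and at 24 h (purple) for each gene, with both cytokines in 1 fit; bars are SE, and open points did not pass. Itgae and Itga4 lie left of 0 at both times with Itgae at -1.66 and -4.72, Itgal lies at 0.83 and 0.81, and Itgb7 lies at 0.27 and -0.999.

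Over all genes, the dose comparison at 4 h called 5.42% higher and 4.63% lower, and that at 24 h called 15.6% higher and 15.6% lower. Of the 9 members, 2 rose (Itgal and Itgb2) and 2 fell (Itga4 and Itgae) at 4 h. At 24 h 1 rose (Itgal) and 3 fell (Itga4, Itgae and Itgb7).

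Itgal, the alpha chain of LFA-1, stood at 184 CPM untreated. In the IL-2 libraries it was at 70.7 CPM (low dose) and 122 CPM (high dose) after 4 h, and at 121 and 199 CPM after 24 h. In those with IL-15 it was at 68.0 and 124 CPM after 4 h, and at 119 and 224 CPM after 24 h. The cytokines gave nearly the same level at each dose and time, and every library at 500 nM lay above every library at 1 nM, though 121 and 122 CPM are close. Itgal rose 1.77-fold with dose (log2 0.82 ± 0.14 SE, adjusted p = 0.00631), a call kept in all 8 fits with 1 library left out.

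The effect of dose on Itgal was 0.83 ± 0.17 at 4 h (adjusted p = 0.0091) and 0.81 ± 0.17 at 24 h (adjusted p = 0.00367). The 4 h call was lost without IL-15 at 1 nM and 4 h (log2 0.77, adjusted p = 0.0616) or without IL-15 at 500 nM and 4 h (0.83, adjusted p = 0.0588), and the 24 h call without IL-15 at 500 nM and 24 h (0.75, adjusted p = 0.0823). The interaction for Itgal was -0.01 ± 0.24 and did not pass.

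Itgb2, the beta chain of LFA-1 and of the myeloid integrins, stood at 479 CPM untreated. After 4 h of IL-2 it was 139 CPM at the low and 325 CPM at the high dose, and after 24 h 262 and 368 CPM. IL-15 gave 173 and 247 CPM after 4 h, and 301 and 391 CPM after 24 h. Each library at 500 nM was above its match at 1 nM, but the groups overlapped. Itgb2 rose 1.57-fold with dose (log2 0.65 ± 0.18 SE, adjusted p = 0.0396). This call was kept only on leaving out IL-15 at 500 nM and 4 h, and was lost on leaving out any of the other 7 treated libraries (log2 0.48 to 0.77, adjusted p 0.0527 to 0.123). At 4 h alone the rise of Itgb2 was 0.88 ± 0.20 (adjusted p = 0.0156), lost without IL-2 at 1 nM and 4 h (0.70, adjusted p = 0.142) or IL-2 at 500 nM and 4 h (0.57, adjusted p = 0.136), and at 24 h the difference was 0.43 ± 0.20 (adjusted p = 0.127).

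The second comparison asked what changed from 4 to 24 h. Of the 9 members 1 rose, Itgal, and 0 fell, where 2.69% of all genes were called higher, and the members' median was -0.31 beside -0.0031 for all genes. This count depended on the fit, as did the number of all genes called. DESeq2 called 4 members and 2125 genes, and the model with a dose by time term added called 7 members and 3045 genes. Fits with 1 library left out called 0 to 2 members and 82 to 1328 genes. Itgal rose 1.72-fold (log2 0.79 ± 0.14 SE, adjusted p = 0.0195), higher at 24 h in 4 of 4 matched pairs. The call held without IL-15 at 1 nM and 4 h or IL-15 at 1 nM and 24 h and was lost without any 1 of the other 6 libraries (log2 0.77 to 0.82, adjusted p 0.0531 to 0.0968). Itgb2 was 0.63 ± 0.18 higher without passing (adjusted p = 0.0752), also in 4 of 4 pairs, and passed with DESeq2 (adjusted p = 0.0159) and with a dose by time term added (0.00765). With that term Itgb7 (0.67, adjusted p = 0.00474) and Itgae (-1.37, adjusted p = 0.000687) passed as well. The summed T cell markers moved the same way, with 4309 to 4702 CPM in the 4 libraries at 4 h and 5497 to 6779 CPM in the 4 at 24 h, and 3 of the 12 were called higher and 0 lower. Their part in the values of Itgal and Itgb2 was not tested.

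Comparisons of time within each dose were added after seeing the data. At 1 nM, 3 members rose (Itgb7, Itgb2 and Itgal), where 1.49% of all genes did. Itgb2 rose by 0.85 ± 0.20 (adjusted p = 0.0446) and Itgal by 0.79 ± 0.17 (adjusted p = 0.0329). Both were lost on leaving out any of 6 libraries, namely the 4 at 1 nM and the 2 at 500 nM and 24 h, with adjusted p from 0.0884 to 0.247 for Itgb2 and from 0.0771 to 0.152 for Itgal. In the same comparison 5 of 12 T cell markers and 5 of 12 myeloid markers were called higher and 0 lower, and 1 of 10 B cell markers higher. The myeloid sums went from 269 to 610 CPM with IL-2 and from 254 to 753 CPM with IL-15, and the B cell sums from 602 to 799 and from 571 to 805 CPM. The part of these markers in the rises of Itgb7, Itgb2 and Itgal was not tested.

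At 500 nM, Itgal rose from 4 to 24 h, where 13.3% of all genes rose, and Itgae, Itgav and Itga4 fell, where 12.9% fell. Itgae fell by 2.90 ± 0.31 (adjusted p = 7.1e-05). Itga4 fell by 1.15 ± 0.26 (adjusted p = 0.00687), which was lost without IL-2 at 500 nM and 24 h (adjusted p = 0.0764), IL-15 at 500 nM and 4 h (0.112) or IL-15 at 500 nM and 24 h (0.0546). Itgal rose by 0.78 ± 0.17 (adjusted p = 0.00594), which was lost without IL-2 (0.052) or IL-15 (0.122) at 500 nM and 24 h.

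The levels of Cd44 separated by time, without passing the test. It stood at 31.5 CPM untreated. With IL-2 it was at 51.0 CPM at the low and 41.5 CPM at the high dose after 4 h, and at 29.1 and 33.2 CPM after 24 h. The IL-15 libraries had 47.5 and 44.8 CPM after 4 h, and 29.4 and 34.8 CPM after 24 h. The 4 libraries at 4 h spanned 41.5 to 51.0 CPM and did not overlap the 4 at 24 h, which spanned 29.1 to 34.8 CPM and lay around the untreated level. The difference between times, -0.55 ± 0.17, did not pass (adjusted p = 0.0889). It passed with DESeq2 (adjusted p = 0.0353) and with a dose by time term added (adjusted p = 0.0174). Between doses Cd44 differed by 0.01 ± 0.17 (adjusted p = 0.974). The most the levels of Cd44 differed between any 2 libraries was 1.75-fold, the narrowest range of the 9 members.

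Cd44 RNA is spliced with or without a block of variant exons, which CD44 isoforms of epithelial and some activated cells carry. The files count its longest transcript (NM_009851) and the shortest (NM_001039151) separately. In GENCODE M21 the former holds 10 exons of 1245 bases in all that the latter lacks, which is the difference in length between both in the files. The GENCODE M21 models also differ outside these exons, with 2766 bases in all found only in the former. Over the 1245 bases by which the transcripts differ in the files, the longest had 0 reads more than the shortest in the untreated library. After 4 h of IL-2 the longest transcript had 12 more at the low and 1 more at the high dose, and after 24 h 0 at both. After 4 h of IL-15 it had 8 and 4 more, and after 24 h 0 and 3. Per base this was at most 2.26% of the reads over the shared part of Cd44, reached in the 2 libraries at 1 nM and 4 h (2.25% and 2.26%), and a count of 0 allows up to 0.722% to 1.09%. Nearly all Cd44 reads thus came from the standard exons. With so few reads no difference between conditions was tested.

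Itgb1, the common beta chain of the VLA integrins, stood at 104 CPM untreated. In the IL-2 libraries it was at 69.2 CPM (low dose) and 73.1 CPM (high dose) after 4 h, and at 49.2 and 76.8 CPM after 24 h. In those with IL-15 it was at 44.8 and 56.0 CPM after 4 h, and at 59.7 and 87.3 CPM after 24 h. Every treated library lay below the untreated one, and the dose groups overlapped. Itgb1 differed by 0.39 ± 0.20 with dose (adjusted p = 0.215) and by 0.16 ± 0.20 with time (adjusted p = 0.679), so neither passed.

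Itgav and Itgb3, the chains of the vitronectin receptor, were the lowest of the 9. Itgav stood at 2.42 CPM untreated. After 4 h of IL-2 it was 7.24 CPM at the low and 9.00 CPM at the high dose, and after 24 h 4.69 and 1.98 CPM. IL-15 gave 6.60 and 8.08 CPM after 4 h, and 5.10 and 3.65 CPM after 24 h. All 4 libraries at 4 h lay above all 4 at 24 h, yet the difference of -1.06 ± 0.38 did not pass (adjusted p = 0.126), except with a dose by time term added (adjusted p = 0.0333). At 500 nM alone Itgav fell by 1.63 ± 0.47 from 4 to 24 h (adjusted p = 0.0222), a call lost without any 1 of the 4 libraries at 500 nM (adjusted p 0.0595 to 0.284). Each level of Itgav rests on 70 to 297 reads.

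Itgb3 stood at 6.81 CPM untreated. With IL-2 it was at 7.37 CPM at the low and 5.33 CPM at the high dose after 4 h, and at 5.15 and 3.68 CPM after 24 h. The IL-15 libraries had 11.7 and 5.81 CPM after 4 h, and 9.88 and 6.20 CPM after 24 h. IL-15 gave the higher value in 4 of 4 matched pairs. Itgb3 passed neither for dose (-0.65 ± 0.28, adjusted p = 0.138) nor for time. Platelets are rich in beta3, and of the 11 platelet markers 2 had no read in any library, with a summed level of 1.48 to 9.14 CPM. The integrin chain Itga2b, 1 of these markers, was 8.49 of the 9.06 CPM with IL-15 at 1 nM and 4 h and 3.03 of the 9.14 CPM untreated. Each of the other markers had at most 3 reads in at least 1 library. The part of platelets in the level of Itgb3 was not tested.

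**Figure D3:**
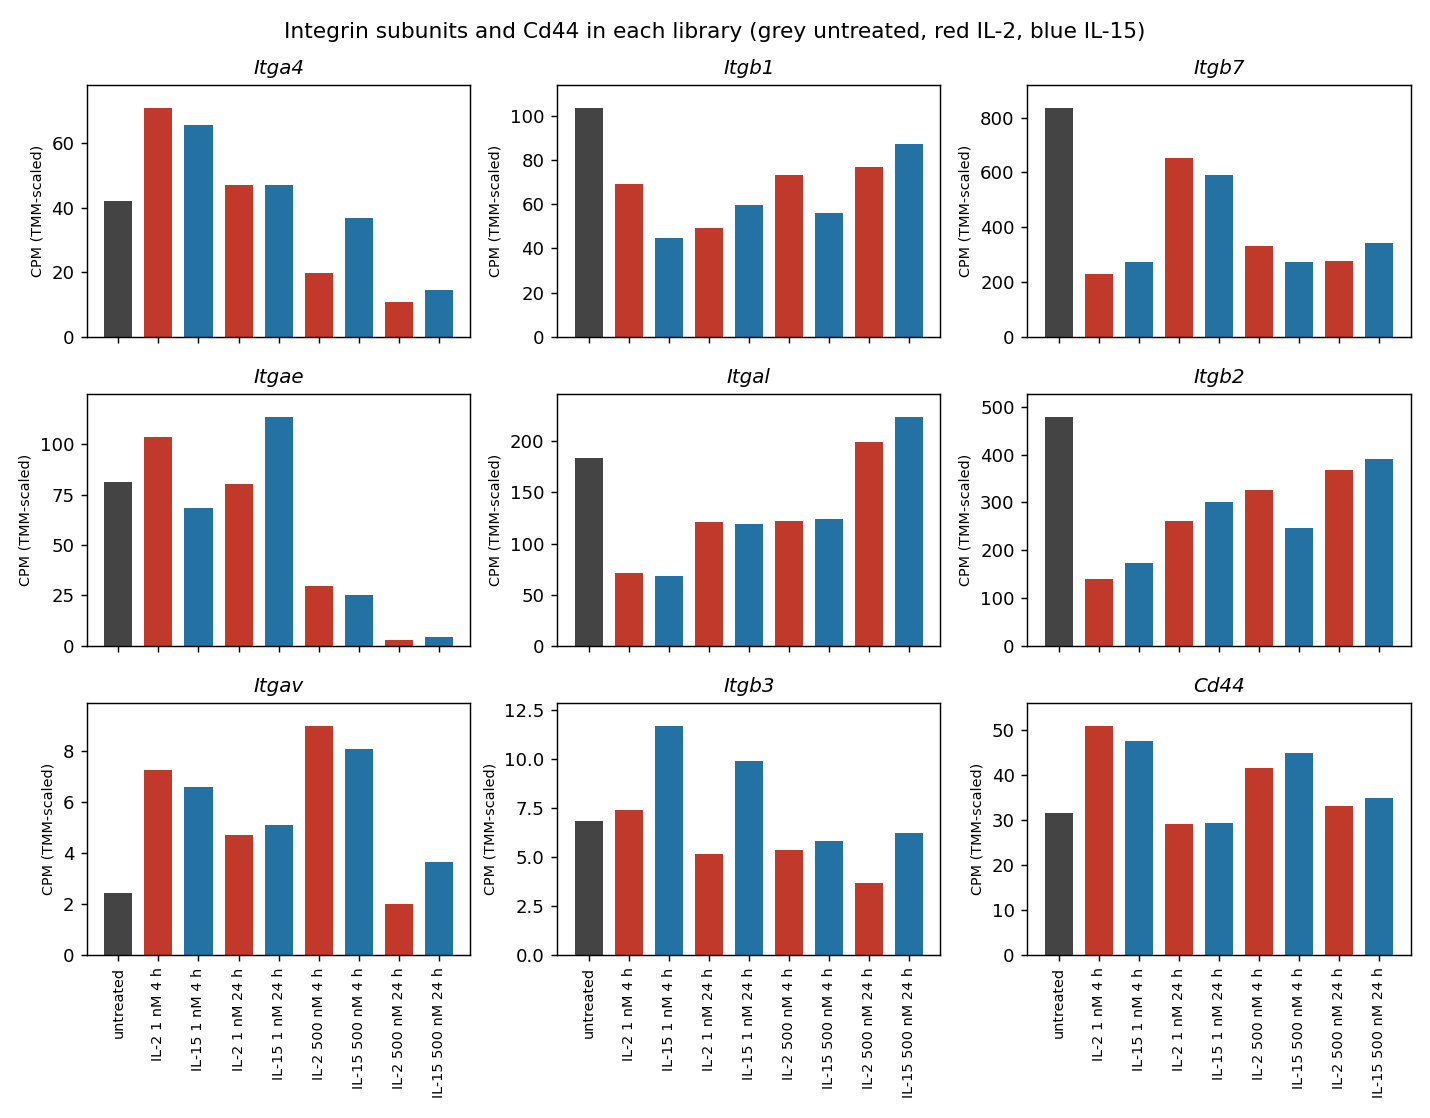
Level of each gene in each of the 9 libraries, as CPM scaled by TMM on an axis from 0 (1 bar a library, no error bar since no condition was repeated). Itgae drops to 2.80 and 4.57 CPM at 500 nM and 24 h, Itgb7 is highest untreated and at 1 nM and 24 h, Itgal is highest at 500 nM and 24 h, and Cd44 is higher in the 4 h libraries.

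The third comparison set IL-15 against IL-2, the question of the study's title. No gene passed (0% of 13479; edgeR gave 125 genes at an unadjusted p under 0.05, DESeq2 called 2 and limma-voom 0), and so 0 of the 9 members did. Itgb3 was the 1 member with an unadjusted p under 0.05 (log2 0.62 ± 0.28, adjusted p = 1). For Itga4 the difference was 0.31 ± 0.22, for Itgae 0.10 ± 0.54, for Itgal 0.03 ± 0.14 and for Cd44 0.02 ± 0.17. A difference of the size of these errors would not have been detected. The interactions of cytokine with dose and of cytokine with time also called 0% of genes and 0 members. For the former edgeR gave 151 genes at an unadjusted p under 0.05 and DESeq2 called 3, and for the latter edgeR gave 189 and DESeq2 0. No member had an unadjusted p under 0.05 in either.

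Against untreated cells all comparisons share the 1 untreated library, so they are not independent of each other. None of them can separate the cytokine from the time the cells were kept. Averaged over times, 0 members passed at 1 nM, where 0.0742% of genes did, and 0 at 500 nM, where 6.28% did. In edgeR 4 members had an unadjusted p under 0.05 at 1 nM, as did 1555 of all 13479 genes, and 3 members at 500 nM, as did 3388 genes. DESeq2 called 2 members at each dose, with 578 genes called at 1 nM and 2287 at 500 nM. Nearest to the threshold at 500 nM were Itgb7 (log2 -1.41 ± 0.38, adjusted p = 0.0608), Itgae (-2.80 ± 0.76, adjusted p = 0.0616) and Itga4 (-1.17 ± 0.33, adjusted p = 0.0651). Each of these passed with a dose by time term added (adjusted p of 0.000479, 2.4e-05 and 0.00855). Leaving out 1 library also brought some past it: IL-2 at 500 nM and 4 h for Itgb7 (adjusted p = 0.0371) and for Itgae (0.0421), either 1 nM library of IL-15 for Itgae (0.0312 and 0.035), and, for Itga4, the 4 h library of IL-15 at 1 nM (0.0472) or at 500 nM (0.0294).

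Split by time, a comparison added after seeing the data, the chains of LFA-1 and Itgb7 were low early at the low dose. At 1 nM and 4 h, Itgal was 2.65-fold lower (log2 -1.41 ± 0.20, adjusted p = 0.00266), Itgb2 3.07-fold lower (-1.62 ± 0.24, adjusted p = 0.00266) and Itgb7 3.32-fold lower (-1.73 ± 0.23, adjusted p = 0.00143) than untreated. They were 3 of 9 members, where 3.55% of genes were called lower. With 1 treated library left out the log2 values were -1.46 to -1.35 for Itgal, -1.80 to -1.45 for Itgb2 and -1.89 to -1.58 for Itgb7. Each of these fits kept the 1 untreated library, so they cannot show whether that library was unusual. At 1 nM and 24 h edgeR called 0 members and 1.65% of genes. There 3 members had an unadjusted p under 0.05, as did 2169 of all 13479 genes. DESeq2 called 3 members there, and its number over all genes was not kept. At 500 nM and 4 h Itgae and Itgb7 fell, 2 of 9 members where 8.47% of genes fell, and at 500 nM and 24 h Itgae, Itga4 and Itgb7 fell, where 12.3% did. Itgb7 was 2.76-fold lower at 500 nM and 4 h (adjusted p = 0.00115) and 2.69-fold lower at 500 nM and 24 h (adjusted p = 0.00108). Marker genes moved in the same comparisons. At 1 nM and 4 h against untreated, 4 of 12 T cell markers were called lower and 0 higher, and their sum was 4309 CPM with IL-2 and 4439 CPM with IL-15 against 7138 CPM untreated. Of 12 myeloid markers tested 6 were called lower and 0 higher, of 8 dendritic cell markers 0 either way, and of 10 B cell markers 1 lower and 0 higher. At 500 nM the T cell markers had 5 lower and 0 higher at 4 h, and 3 lower and 1 higher at 24 h, while the myeloid markers had 7 and then 10 lower and 0 higher. There the dendritic cell markers had 4 and then 5 lower and 0 higher, and the B cell markers 5 and then 9 lower and 0 higher. The sums of the myeloid and of the dendritic cell markers were highest in the untreated library, but not every gene was: Lyz2 stood at 20.9 CPM untreated and at 138 and 217 CPM at 24 h of 1 nM. The part of these markers in the falls of the members was not tested.

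Ratios of partner or alternative chains per length (RPKM) describe the balance of the transcripts. Itgb7 exceeded Itgb1 in every library, by 12.7 times untreated, by 20.8 and 15.5 times with IL-2 and IL-15 at 1 nM and 24 h, and by 5.20 to 9.60 times in the other 6. Itga4 stood at 0.162 to 0.575 times Itgae in 7 libraries, and at 1.502 and 1.23 times with IL-2 and IL-15 at 500 nM and 24 h, so the order of both alpha chains of beta7 was reversed there while both were low. Itgal stayed between 0.276 and 0.422 times Itgb2. Itgb3 was 0.0348 to 0.189 times Itgb1. These ratios are of RNA and carry no test.

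**Figure D4:**
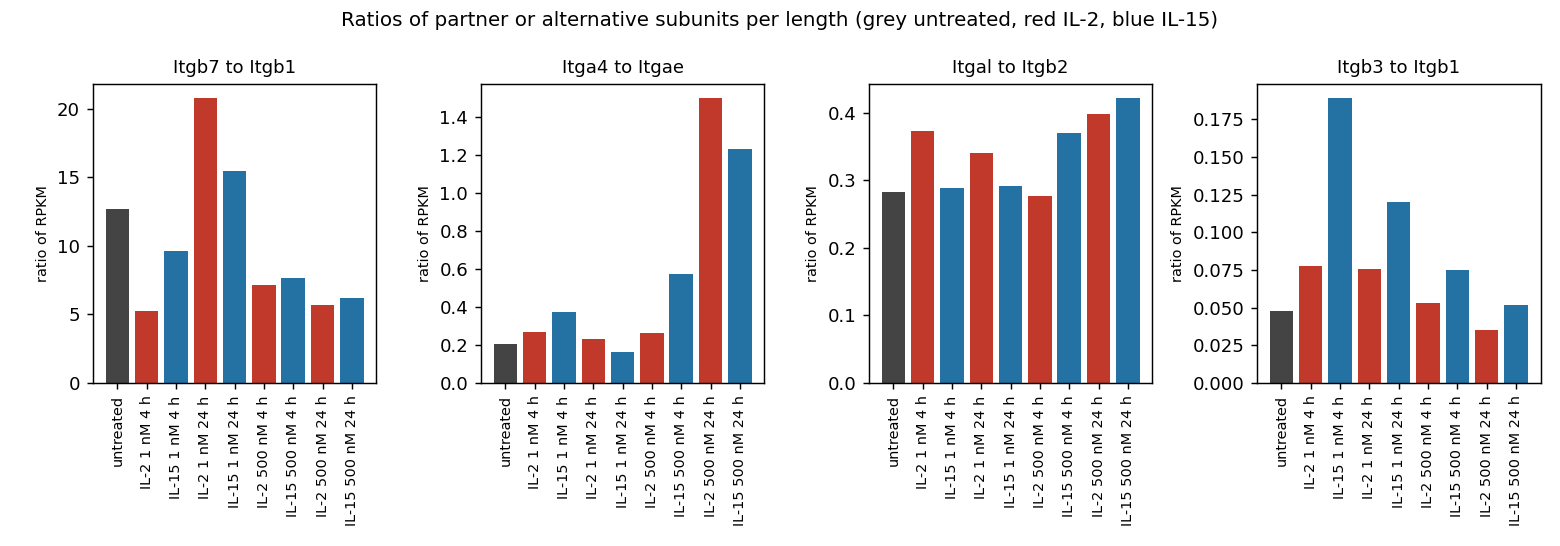
Ratio of RPKM of 2 integrin chains in each library, on axes from 0 (grey untreated, red IL-2, blue IL-15, no replicates). Itgb7 to Itgb1 peaks at 1 nM and 24 h (20.8 and 15.5), Itga4 to Itgae exceeds 1 at 500 nM and 24 h (1.502 and 1.23), and Itgal to Itgb2 stays within 0.276 to 0.422.

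Over the 9 libraries some members had similar profiles, given as a description since the points share their conditions. On log2(CPM + 1) the chains of LFA-1, Itgal and Itgb2, had Pearson r = 0.921, and Itga4 and Itgae had 0.922. Cd44 and Itgb7 had r = -0.811, and Itga4 and Itgal -0.798. Among 7257 other genes with a mean of at least 10 CPM, the profile most like Itgae was that of Add1, an adducin of the membrane skeleton (r = 0.994), and next Ttc28 (0.992). For Itga4 these were Spata13 (0.982) and Fam117b (0.979), for Itgal Elmo1, a regulator of Rac activation (0.973), and Sema4a (0.973), and for Itgb2 the BH3-only protein Bid (0.960) and Abi3 (0.958). For Cd44 they were Plekha2 (0.966) and Nfkbid, an atypical inhibitor of NF-kappaB (0.966), for Itgb1 the lipid phosphatase Inpp5d (0.939) and Pex7 (0.928), and for Itgb7, after Bank1, Psen2 (0.952). For Itgav they were Spag9 (0.963) and Zcchc6 (0.960), and for Itgb3 Spata2L (0.900) and Accs (0.898).

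The rest of the integrin system was described from lists. Of 18 other integrin chains 15 could be tested (median log2 fold change with dose -1.07 beside -0.03 for all genes). With dose 3 fell and 0 rose, where 8.47% of all genes fell. These were Itgad (-1.82), Itgax (-1.07) and Itgb5 (-3.59), of which Itgad and Itgax are beta2 partners best known from myeloid cells. Itgad stood at 115 CPM and Itgax at 47.2 CPM in untreated cells, and both were lower in every treated library, with 0.283 and 1.36 CPM at the lowest. Itga5, the alpha chain of the fibronectin receptor, fell with time (log2 -1.43 ± 0.21, adjusted p = 0.0116), from 26.0 to 40.0 CPM at 4 h to 9.23 to 16.0 CPM at 24 h.

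Among 16 ligand genes, 12 were tested. With dose 1 rose and 2 fell, where 7.63% of all genes rose and 8.47% fell. Icam1, which binds LFA-1, rose with dose (log2 0.94 ± 0.21, adjusted p = 0.0175) and fell with time (-1.21 ± 0.21, adjusted p = 0.0176). It reached 813 CPM with IL-2 and 795 CPM with IL-15 at 500 nM and 4 h, against 149 to 358 CPM in the other 7 libraries. Icam2, another ligand of LFA-1, fell with dose (-1.11), and so did Vcam1 (-1.89), the ligand of alpha4beta1, which was also among the myeloid markers.

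Of 18 genes for integrin activation 3 fell with dose and 0 rose, where 8.47% of all genes fell. They were the kinase Stk4 (log2 -1.12), the exchange factor Rasgrp2 (-0.89) and the adaptor Rassf5 (-0.78). Fermt3 (kindlin-3), which binds beta tails, rose with time (0.74 ± 0.15, adjusted p = 0.0263). Of 16 genes that link integrins to actin, Vasp rose with dose (0.59), and Actn1 (-1.76) and Zyx (-0.62) fell. Of the 10 tested genes of CD44 partners, Khdrbs1, an RNA-binding protein known to regulate Cd44 splicing, rose with dose (0.71), and the membrane linker Ezr fell with time (-0.67). Of 15 other adhesion genes Cd48 rose with dose (0.78) and Alcam fell with time (-1.41). Over all 13479 genes, 7.63% rose and 8.47% fell with dose, and 362 genes rose and 353 fell with time. No list was tested as a set.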

How the data were processed

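RNA sequencing of 9 pooled libraries was read from the authors' deposited tables, which hold raw read counts per RefSeq transcript (24373 transcripts) and RPKM made by the authors from those counts. The submitters' processing notes name CASAVA 1.8, Bowtie 0.12.4 and build mm8. For the counting program, the strand and reads that map to several places, the record is: not given in the sources used here. Each symbol was read from the transcript that had most reads on average. Counts were tested with edgeR 4.0.16 in R 4.3.3 (quasi-likelihood with legacy deviances, filterByExpr with minimum count 10 and total 15, TMM scaling) with cytokine, dose, time and an untreated term, leaving 4 residual degrees of freedom. Each interaction was added alone, leaving 3. The Benjamini-Hochberg adjustment ran over 13479 genes, with a threshold of 0.05, and SEs were derived from the F statistic. Without repeated conditions, the spread assumes that interactions left out are small. The dose by time interaction was called for 1188 genes, among them Itgae and Itgb7, so for these genes it was not small. The main fit, which has no such term, left that interaction in the spread. For Itgae the SE of the difference between times was 0.62 in the main fit and 0.21 with the term added. RPKM served to compare genes, and CPM to compare libraries.

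Alternatives were DESeq2 1.42.0, limma-voom (limma 3.58.1), scaling by median of ratios, genes left unfiltered, a minimum mean of 50 counts, averaging over transcripts, an added dose by time term (all 3 interactions where that term was tested) and each treated library left out. Leaving 1 out can leave a dose and time with 1 library, which is assumed to vary like the others. The effects of dose at each time, of time at each dose, and of each dose and time against untreated came from the fit with the dose by time term and were added after seeing the data. The pipeline was tested on simulated data. The members and the 17 gene lists (195 of 196 genes found) were chosen with earlier results of these data known. Named genes were all members, up to 5 genes per list (those passing for dose or time, by size of change, otherwise the 2 highest) and the 2 genes most like each member.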

Additional observations from a re-analysis of the deposited data

Results flagged for a closer look

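The effect of dose on Itgae differed between times by -3.05 on the log2 scale (500 over 1 nM, 24 h minus 4 h), by a test of the interaction itself. The effect of dose on Itgb7 differed between times by -1.27, by the same test. No group had the 4 libraries needed to test a single library as an outlier.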

How the results depend on the processing

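Of 747 recomputed member effects, 664 kept direction and call, 50 lost a call, 22 gained one and 11 reversed. Those 747 covered all members for dose, time, 500 nM against untreated and dose by time. In the comparisons added after seeing the data they covered only members called there, which could lose a call but not gain one. An effect called in neither fit counts among the 664. The reversed ones were near 0. Cd44 for dose was -0.00062 with a mean of 50 counts, and with 1 library left out -0.039 to 0.093. Left-out libraries also gave -0.49 to 0.046 for Itgav with dose, and, for the dose by time interaction, -0.10 to 0.078 for Itgal and -0.17 to 0.49 for Itgb3. DESeq2 called 3495 genes for dose (2170 with edgeR), 2125 for time (715), 578 at 1 nM against untreated (10), 2287 at 500 nM against untreated (847), 1792 for dose by time (1188), 2 for cytokine and 3 for cytokine by dose. It called 4 members for time, 2 at 1 nM and 2 at 500 nM against untreated, and, against untreated, 3 for 24 h of 1 nM and 5 for 4 h of 500 nM. For the comparisons split by time, the number of all genes called by DESeq2 was not kept, so these member counts have no share beside them. With the dose by time term added, calls were 4325 for dose, 3045 for time, 589 and 2916 for 1 and 500 nM against untreated and 2 for cytokine by dose, with 7, 3 and 3 members for time and for 1 and 500 nM against untreated. Limma-voom called 1175 genes for time and 98 at 1 nM against untreated, and 1 member at 500 nM against untreated. Median-of-ratios scaling called 20 genes and no filter 16 at 1 nM against untreated. With 1 library left out, genes called ranged over 927 to 2435 for dose, 82 to 1328 for time, 1 to 20 and 397 to 1064 for 1 and 500 nM against untreated, and 356 to 1102 for dose by time. Members called then ranged over 0 to 2 for time, 0 to 2 at 500 nM against untreated, 1 to 2 for dose by time, 1 to 4 for dose at 4 h, 0 to 3 for time at 1 nM, 1 to 4 for time at 500 nM, and 1 to 3 at 500 nM and 4 h against untreated. The cause was not tested, beyond the fewer libraries of the last set of fits. The labels carry no replicate numbers, so no replicate block was fitted. Depth limited Itgav and the variant exons of Cd44 most.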
